A study of Caenorhabditis elegans with 2 samples.

Results

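The HSP70, HSP90 and HSP60 chaperone genes of Caenorhabditis elegans were followed through LIN-35 chromatin immunoprecipitation and sequencing (ChIP-seq) peak lists: 9 genes, hsp-1, hsp-90, hsp-110, hsp-3, hsp-4, hsp-6, hsp-60, hsp-75 and hsp-70, of 19985 protein-coding genes. They were chosen by name as a gene family, but with the peaks of these same lists known, so every promoter signal and rank given here is a description and carries no test. LIN-35 is the worm's relative of the retinoblastoma tumour suppressor. The samples were 2 biological replicates of a single group, with no other condition, and a control library used by the authors was not analysed here. Whole young adults of mixed sex, males and females pooled, of strain YL468 were used. The strain carries unc-119(ed3) on chromosome III and the insertion vrIs93, in which the mex-5 promoter drives LIN-35:GFP:FLAG with the 3′ UTR of LIN-35, together with unc-119(+) as a rescuing gene. Because mex-5 is a germline gene, the fusion may not be made in all tissues. The labels give lin-35 as the antibody and eGFP-lin-35 as the ChIP target, so the epitope is not settled, and no age beyond the stage is given. In whole animals, weak occupancy in many cells and strong occupancy in a few cannot be told apart.

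HSP70 proteins bind exposed hydrophobic stretches of unfolded proteins and release them in a cycle of ATP hydrolysis that J-domain proteins start and nucleotide exchange factors end. HSP90 proteins act later, on nearly folded clients such as kinases and receptors, and HSP60 forms a chamber in mitochondria in which proteins fold. Each compartment has its own forms: in the worm, hsp-1 and hsp-90 are the cytosolic HSP70 and HSP90, hsp-110 is an HSP70 relative that acts as an exchange factor, hsp-3 and hsp-4 are the BiP proteins of the endoplasmic reticulum (ER), hsp-6, hsp-60 and hsp-75 act in mitochondria, and hsp-70 is a form made on heat shock. Heat shock factor, HSF-1, binds repeats of the unit GAA in alternating orientation, XBP-1 acts at ER stress genes, and LIN-35 reaches DNA through E2F-DP proteins or, in the DREAM complex, through LIN-54.

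The stretches of DNA that the promoter results refer to are given first. Each is 30 bases on the gene's own strand, 5′ to 3′, read from the RefSeq genome of build ce11 (WBcel235). The capitals mark motif letters. In the hsp-60 promoter an E2F stretch, shown because it lies beside the highest summit of the family, held 2 of the 4 strings TTTCCCGC, TTTCGCGC, TTTGCCGC and TTTGGCGC, both on the opposite strand.
hsp-60 E2F, III:1619078-1619107, + strand: gcgGCGCGAAAaatctcgtGCGGCAAActt
The next stretches carry a heat shock element of 3 units, TTC and GAA in alternation with 2 bases between them, and are shown to compare these elements among bound promoters and that of hsp-6, which had a summit below the threshold.
hsp-60 heat shock element, III:1619037-1619066, + strand: aaccaaaaGAAGCTTCGAGAAaaaaagcag
hsp-1 heat shock element, IV:17278807-17278836, + strand: cgaaattcGAATTTTCTAGAAtcccgccac
hsp-90 far heat shock element, V:14684825-14684854, + strand: aacagtttTTCTCGAATGTTCtacaaaaat
hsp-90 near heat shock element, V:14684895-14684924, + strand: atttttctTTCTCGAAAGTTCtcaaatttt
hsp-110 far heat shock element, III:8447126-8447155, - strand: actagacgtTTCTCGAATATTCggtgtgcc
hsp-110 near heat shock element, III:8447004-8447033, - strand: tatttgctcGAAATTTCTAGAAaaatattt
hsp-6 heat shock element, V:4827047-4827076, - strand: attctttttTTCGAGAAATTTCtcgagttt
The letters TGACGTG, of the type bound by XBP-1, stood in the promoters of both ER genes, on opposite strands.
hsp-3 XBP-1-type motif, X:6092239-6092268, - strand: caacctagtaacTGACGTGtcccacggaca
hsp-4 XBP-1-type motif, II:7352711-7352740, - strand: ccagcactaataCACGTCAtctccgataag

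Peaks came in 4 lists. The authors' thresholded list held 550 peaks that passed a cutoff on the irreproducible discovery rate, a measure of repeatability. These were the 550 highest of the 30000 peaks in the pooled list, and not all of them were high in both replicates. On nuclear chromosomes lay 523 of the 550, and the others were on mitochondrial DNA. Ranks, and the motif and base-composition values of all thresholded peaks, include these unless nuclear peaks are named. The replicate 1 list held 30000 peaks and the replicate 2 list 18226, background included. Signal is the authors' value per peak. It ran from 24.8 to 478 in the thresholded list, from 3.97 in the pooled list, from 2.94 in replicate 1 and from 2.00 in replicate 2. Its scale is not stated, so replicates were set side by side by rank, with rank 1 the highest. Sequencing depth is unknown. The promoter window of a gene reached from 1000 bp before to 300 bp past each annotated transcript start, and a gene with a thresholded summit inside it is called bound.

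Of the 9 chaperone genes 4 were bound, hsp-60, hsp-1, hsp-90 and hsp-110. This was 44.4% of them, beside 2.77% of all protein-coding genes (553 of 19985). In hsp-60, hsp-1 and hsp-90 the peak also overlapped the 550 highest peaks of each replicate, 3 of 9 or 33.3%, beside 1.25% of all genes. As the genes were chosen with these peaks in view, nothing is read from either difference. By role, all 3 cytosolic constitutive genes were bound, 1 of the 3 mitochondrial genes, neither of the 2 ER genes and not the heat-inducible hsp-70. The classes are too small, and were too much part of the choice, for a test of that order. Counting summits of any strength, 7 of 9 genes had one in the pooled list, beside 42.9% of all genes, 7 in replicate 1, beside 42.1%, and 7 in replicate 2, beside 29.9%, and nothing is read from these either. The best pooled signal over the 9 genes had a median of 17, with genes without a summit taken as 0, and over all genes the median was 0. Among genes with a summit it was 41.8 for the chaperones and 7.38 for all genes.

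**Figure D1:**
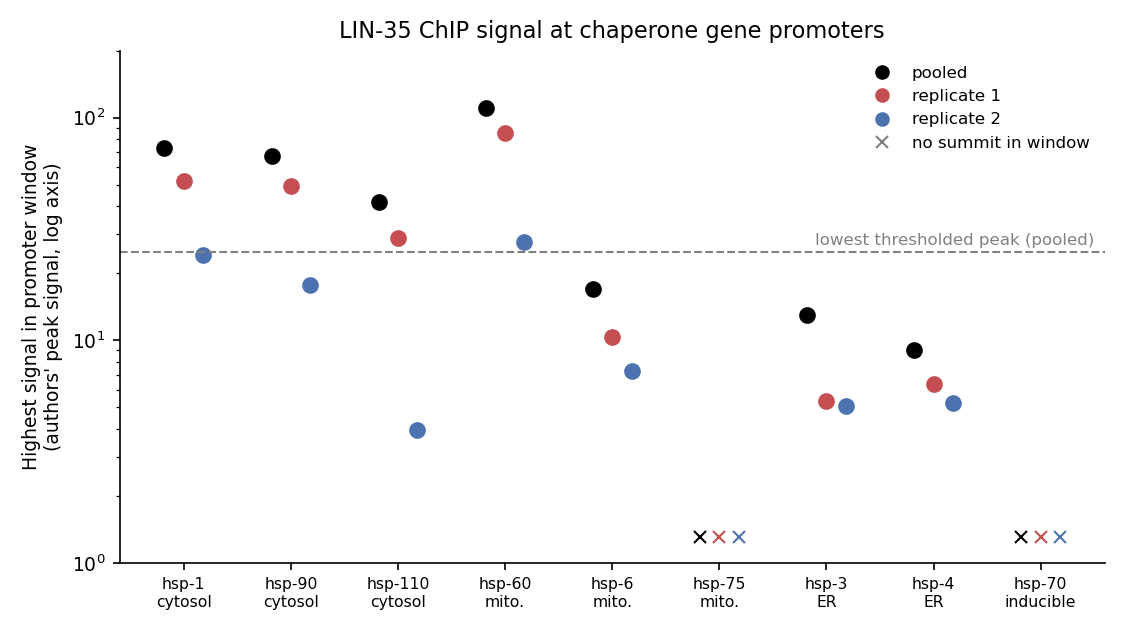
Best promoter-window signal (vertical axis, log scale, the authors' units) of each of the 9 chaperone genes in the pooled, replicate 1 and replicate 2 lists, ordered by cell compartment (mito. for mitochondria, ER for endoplasmic reticulum), with crosses at the bottom where a list has no summit and the dashed line at the threshold of the pooled signal, 24.8. The 3 cytosolic genes and hsp-60 stand above the line in the pooled list, and hsp-75 and hsp-70 have crosses only.

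Among the cytosolic forms, hsp-1, the constitutive HSP70 (IV:17278959-17281330, + strand), had a pooled signal of 72.9, rank 78 in the thresholded list. Its peak lay at IV:17278366-17278721, in intergenic DNA, with the summit 415 bp upstream of the only annotated start. The signal was 52.2 in replicate 1, rank 81, and 24.1 in replicate 2, rank 61. Both replicates thus placed it among their highest peaks, with summits 2 and 14 bp from the pooled one. Of all protein-coding genes, 0.380% (76) had a best pooled signal at or above that of hsp-1. Nearer the start, 214 bp upstream, the pooled list held a weaker summit of 12.8, rank 2467, and replicate 1 held 18.1, rank 548, at 210 bp. Replicate 2 listed no summit there.

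The HSP90 gene hsp-90 (V:14684918-14688545, + strand) had its peak inside the gene. The summit of the peak V:14685609-14685964 lay in an intron, 869 bp downstream of the first start and 373 bp upstream of an internal start at 14686160. The pooled signal was 67.2, rank 88, and it was 49.3 in replicate 1, rank 86, and 17.7 in replicate 2, rank 122. The summit position was identical in the 3 lists. It counts as a promoter peak through the internal start, and with the first annotated start of each gene alone hsp-90 had no thresholded summit in its window. Upstream of the first start, replicate 2 alone listed a summit, at 131 bp, with a signal of 4.04 and rank 5773.

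The exchange factor gene hsp-110 (III:8443910-8446909, - strand) had the lowest signal of the bound chaperones. Its peak at III:8447025-8447380 had a pooled signal of 41.8, rank 190, with the summit 294 bp upstream of the start. Replicate 1 gave 28.7, rank 231, with a summit 11 bp from the pooled one. Replicate 2 gave 3.97, rank 6010, and its summit lay 145 bp away, in the noncoding RNA gene C30C11.14. The 2 replicates therefore stood far apart at hsp-110, and this call rests on replicate 1 and the pooled data. The share of all genes with a best signal at or above that of hsp-110 was 1.3% in replicate 1 and 13.6% in replicate 2.

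Among the mitochondrial forms, hsp-60 (III:1619742-1625803, + strand) had the highest signal of the family. The peak at III:1619043-1619219 had a pooled signal of 110, rank 32, or rank 15 among nuclear peaks, with the summit 629 bp upstream of the first of its 4 starts. It was 85.0 in replicate 1, rank 35, and 27.8 in replicate 2, rank 44. Both replicates placed it within their 50 highest peaks, with summits 35 and 2 bp from the pooled one. Only 0.145% of genes (29, hsp-60 among them) had a best pooled signal at or above it. A weaker pooled summit of 11.4, rank 3326, lay in an intron, 474 bp upstream of an internal start. Among nuclear peaks of the pooled list hsp-1 ranked 56, hsp-90 66 and hsp-110 165.

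The mitochondrial HSP70 gene hsp-6 (V:4824124-4826760, - strand) came nearest to the threshold from below. Its pooled summit, 311 bp upstream of the start, had a signal of 17, rank 1253, which is 0.686 times the lowest thresholded signal, whereas hsp-110, the bound chaperone gene of lowest signal, stood at 1.68 times. Replicate 1 gave 10.4, rank 2360, at 391 bp and replicate 2 gave 7.28, rank 1243, at 278 bp. All 3 lists thus had a summit there below their highest 550. These summits lay in exons of the noncoding RNA gene C37H5.16, and the divergent gene C37H5.5 also had the pooled summit in its window. The third mitochondrial gene, hsp-75 (III:7223233-7226707, - strand), the relative of the mitochondrial HSP90 TRAP1, had no summit in its window in any list. Its nearest pooled summit lay 1230 bp downstream of the start, in its own intron, with a signal of 4.80 and rank 23322, in the lower part of the list. The start of hsp-75 lies 99 bp from R151.8, an upstream gene on the same strand.

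In the pooled list the ER genes had weaker summits than the bound chaperones, which follows from the threshold that defines bound. In replicate 2 their best signals, 5.07 at hsp-3 and 5.22 at hsp-4, stood above the 3.97 of the bound hsp-110. Of all genes, 8.38% had a best pooled signal at or above that of hsp-3 and 15.7% at or above that of hsp-4. Both stood above 7.38, the median of genes with a summit. For hsp-3 (X:6089028-6092124, - strand) the pooled summit lay 148 bp downstream of the start, in the 5′ UTR, with a signal of 12.9 and rank 2401. Replicate 1 gave 5.33, rank 12802, and replicate 2 gave 5.07, rank 3381, at 117 and 155 bp. Replicate 2 also listed a summit of nearly the same signal, 5.06, rank 3399, 518 bp upstream of the start. For hsp-4 (II:7350112-7352645, - strand), the BiP gene that is the usual reporter of the ER unfolded protein response in the worm, the pooled list had summits at 678 and 7 bp upstream of the first start and another near an internal start. Their signals were 9.06, 8.05 and 7.91, ranks 6292, 8430 and 8818. Replicate 1 listed a single summit of 6.36, rank 8788, and replicate 2 listed 5, the best at 5.22 and rank 3132. No summit of either gene was among the 550 highest of a list.

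The heat-inducible gene hsp-70 (chromosome I, 9320325 to 9322519, - strand) lies inside uggt-2, a gene on the opposite strand. It had no summit in its window in any list. The nearest was 1542 bp upstream in replicate 1, with a signal of 3.04 and rank 28939. The nearest pooled summit was 2595 bp downstream (4.53, rank 25401) and the nearest thresholded one 14819 bp away. A gene without a listed summit may still have signal below the lowest of the list.

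**Figure D2:**
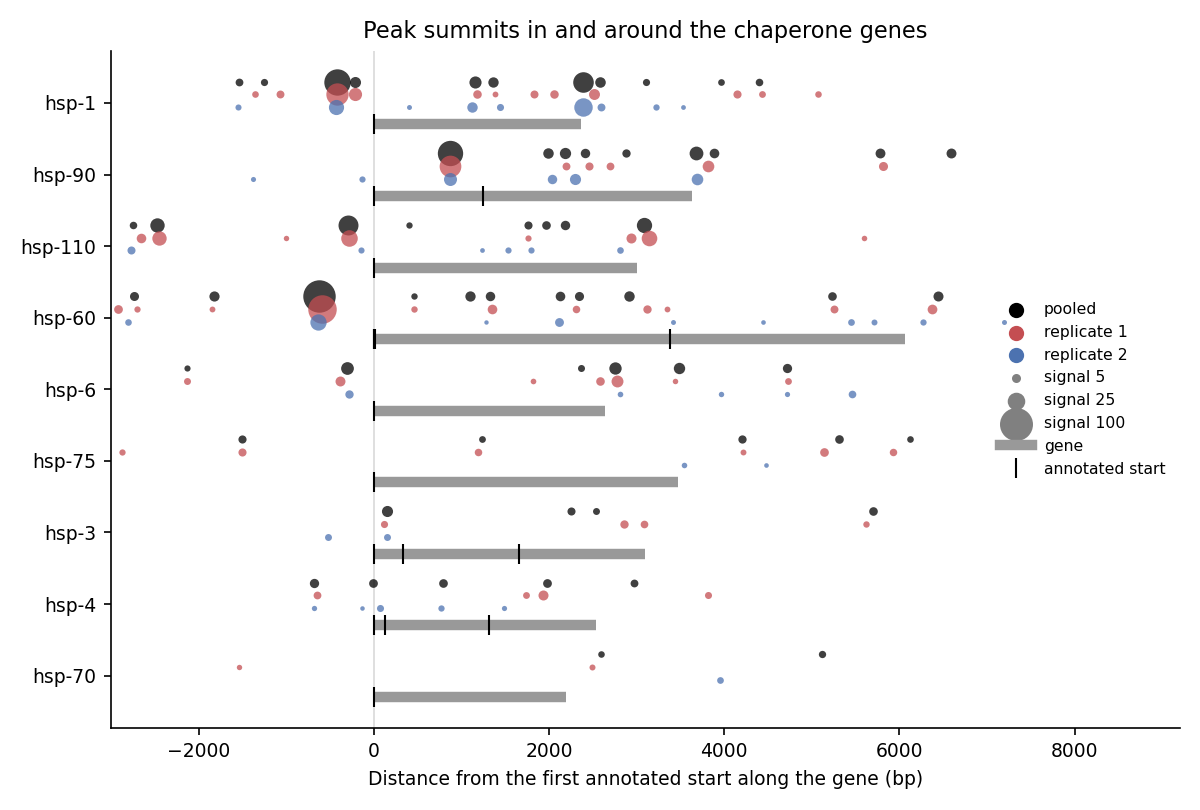
Position of every listed summit within 3000 bp of each chaperone gene and inside it, in bp from the first annotated start (horizontal axis, negative upstream), with circle area by signal, colour by list, a grey bar for the gene and black ticks for annotated starts. The strong summits of hsp-60, hsp-1 and hsp-90 lie together in the 3 lists, that of hsp-110 has only a small, shifted circle in replicate 2, and hsp-75 and hsp-70 have no circle close to their starts.

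Of the 4 bound chaperone genes 3 shared their summit with the window of a neighbour (75%), beside 42.2% of the 403 thresholded peaks with a promoter summit. The hsp-60 summit lay 629 bp from hsp-60 and 184 bp from Y22D7AL.10, which starts 812 bp away on the opposite strand and encodes a relative of HSP10, the lid of the HSP60 chamber. The hsp-110 summit lay 150 bp from rpn-3, which encodes a subunit of the regulatory particle of the proteasome, and 294 bp from hsp-110. The hsp-90 summit lay 302 bp from C47E8.4 and 373 bp from the internal hsp-90 start. In these 3 cases the neighbour's start was the nearer. With each summit given to the nearest start alone, 1 chaperone gene was bound, hsp-1, beside 1.92% of all genes.

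Motifs were sought on both strands, first within 100 bp of thresholded summits. The E2F strings stood near the hsp-60 summit, as printed above, and near none of the other 3, beside 14% of all 550 thresholded peaks. The printed strings lay 13 and 29 bp from the hsp-60 pooled summit. The short letters TTCGAA or TTTGAA, which resemble the element that LIN-54 recognises, stood near the hsp-90 and hsp-110 summits, 2 of 4, beside 59.1% of all peaks. Heat shock units paired head to head, GAANNTTC, stood near all 4 (12.7% of all peaks), and paired tail to tail, TTCNNGAA, near 3 (11.5%). The element of 3 units, which contains both pairs by its construction, stood near hsp-110 and hsp-60, 2 of 4, beside 2% (11 of 550). Within 50 bp a head-to-head pair stood near 1 of the 4 summits, hsp-90, beside 4.91% of all peaks, a tail-to-tail pair near 0, beside 3.45%, and an element of 3 units near 0, beside 0.182%. TGACGTG stood near none of the 4, beside 1.82% of peaks within 100 bp. GC content within 100 bp was 48.3% at hsp-60, 42.3% at hsp-90, 37.8% at hsp-1 and 29.9% at hsp-110, and the median of thresholded peaks was 39.3%.

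Over whole promoter windows, taken from the first start, heat shock elements of 3 units stood in 6 of the 9 genes, hsp-1, hsp-90, hsp-110, hsp-6, hsp-60 and hsp-70, beside 8.21% of 19972 promoters. TGACGTG stood in 3 of 9, hsp-3, hsp-4 and hsp-110, beside 10.1%, and an E2F string in 1 of 9, hsp-60, beside 17.5%. TTCGAA or TTTGAA stood in all 9, beside 99.1%. The hsp-75 window held none of the first 3 kinds. A match is a description of the letters and not a binding site.

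The heat shock elements lay at different distances from the summits. The printed element of hsp-6 was centred 10 bp from its pooled summit, that of hsp-60 62 bp and the far one of hsp-110 63 bp. The printed hsp-1 element, 138 bp upstream of the start, was 76 bp from the weaker pooled summit and not beside the strong one, which was 277 bp away, and a further hsp-1 element lay 897 bp upstream of the start. At hsp-90 both elements lay within 100 bp upstream of the first start, 948 and 878 bp from the pooled summit in the intron. The hsp-70 element lay 67 bp upstream of the start, 2662 bp from any pooled summit. Elements of the same kind thus stood in bound promoters, in the unbound hsp-6 promoter beside a summit below the threshold and in the hsp-70 promoter with no listed summit. The XBP-1-type letters lay 73 bp from the nearest pooled summit (8.05) at hsp-4, 277 bp at hsp-3 and 326 bp at hsp-110.

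**Figure D3:**
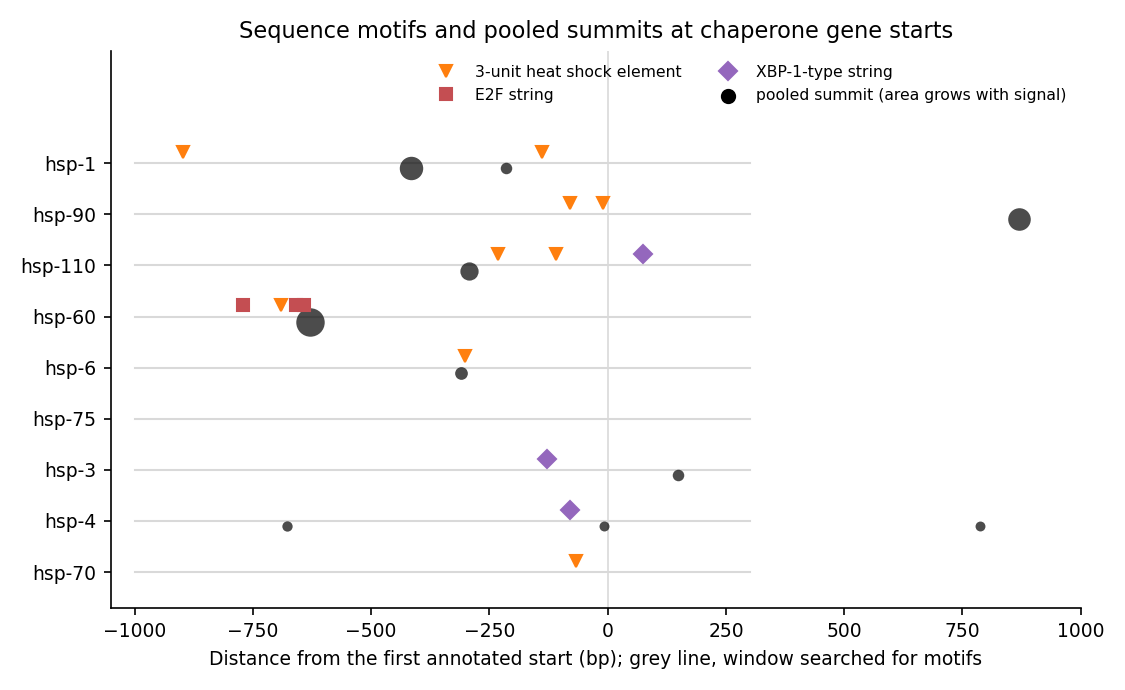
Motif matches (orange triangles for heat shock elements of 3 units, red squares for E2F strings, purple diamonds for XBP-1-type letters) and pooled promoter summits (black circles, area by signal) of each chaperone gene, in bp from the first annotated start (horizontal axis, negative upstream), with a grey line for the stretch searched. Summits more than 1000 bp from the first start are not drawn. The elements of hsp-60 and hsp-6, the far one of hsp-110 and the hsp-1 element nearer the start lie within 100 bp of a pooled summit. Those of hsp-90 lie by the first start, away from the summit at 869 bp.

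Summits near the 3′ ends of the chaperone genes were looked at after the promoter values were seen. Within 300 bp of the gene end a pooled summit lay at 4 of the 9 genes, beside 25.7% of all genes, and a thresholded one at 1 of 9, beside 1.16%. That gene was hsp-1, whose end peak at IV:17281309-17281399 had its summit 16 bp past the end, with a pooled signal of 44.3 and rank 172. It ranked 1373 in replicate 1 (12.59, with the summit 141 bp past the end) and 26 in replicate 2 (35.6), so the replicates differed widely, and in replicate 2 it stood above the hsp-1 promoter peak. The end of hsp-110 had 24.5, rank 571, just under the threshold, inside the promoter window of ufbp-1, and ranked 290 in replicate 1 and 4232 in replicate 2. The end of hsp-90 had 19.9, rank 882, with ranks of 974 and 217 in replicates 1 and 2. The end of hsp-6 had 16.0, rank 1439, with ranks of 886 and 8825. Both lay inside promoter windows of neighbouring genes.

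Inside hsp-1 a pooled summit of 15.5, rank 1545, lay at the intronic small nucleolar RNA gene F26D10.24, and it ranked 5575 in replicate 1 and 368 in replicate 2. Replicate 2 also listed a summit of 13, rank 264, in a coding exon of hsp-90, and one of 8.23, rank 906, in an intron of hsp-60.

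Related genes were set beside the family in 6 hand-written lists and the dnj genes, 81 genes in all without the 9. Of these 9 were bound, 11.1%, beside 2.77% of all genes. A bound peak among the 550 highest of both replicates was found at 5 of the 81, beside 1.25% of all genes. Of these 5 genes 1, Y22D7AL.10, was counted through the hsp-60 peak. The lists were drawn up with earlier results known, so these shares are descriptions too. Co-chaperones of HSP70 and HSP90 held 4 of 14, beside 2.77% of all genes. They were sti-1, which links HSP70 to HSP90 (signal 48.8, rank 152), the J-domain genes dnj-19 (31.6, rank 343) and dnj-13 (27, rank 459), and bag-1, an exchange factor (25.4, rank 527). The ranks of sti-1 were 142 in replicate 1 and 753 in replicate 2, and those of bag-1 were 816 and 678, so bag-1 was among the highest 550 of neither replicate and sti-1 among those of replicate 1 alone. Those of dnj-13 were 495 and 1184, so dnj-13 too was among the highest 550 of replicate 1 alone, and those of dnj-19 were 423 and 377. The co-chaperone count was 1 with the highest 550 peaks of replicate 2, dnj-19, beside 2.28% of all genes. It was also 1 with the higher 50% of the thresholded peaks, sti-1, beside 1.5%.

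The counts of the next 3 lists stand beside 2.77% of all genes, and in lists this small nothing is read from them. J-domain genes held 4 of 29, dnj-13 and dnj-19 with dnj-9 (101, rank 44) and dnj-28 (50.1, rank 142). The mitochondrial import, folding and stress list held 2 of 10, Y22D7AL.10 at the peak it shares with hsp-60 and clpp-1, the mitochondrial matrix protease subunit (49.6, rank 146). Of heat shock factor and its regulators 1 of 4 was bound, hsb-1, whose product binds HSF-1 and restrains it (28.9, rank 405), whereas hsf-1 itself had a best pooled signal of 6.42, rank 13985. With the highest 550 peaks of replicate 2, or the higher 50% of the thresholded peaks, that list held 0, beside 2.28% and 1.5% of all genes. The peaks of dnj-13, dnj-19, dnj-28, clpp-1 and hsb-1 each lay in the window of another gene as well.

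No gene was bound among the 7 other HSP70 and HSP90 relatives, the 12 small heat shock proteins or the 13 genes of the ER stress and folding list, and at the 2.77% of all genes a count of 0 in lists of this size is not a result about them. With the highest 550 peaks of replicate 2 the first of these lists held 2 and the ER list 1, beside 2.28% of all genes. Among the small heat shock genes 4 had a pooled summit, the best at sip-1 (15.1, rank 1646), and the heat-inducible hsp-16.1, hsp-16.2 and hsp-16.48 had none in any list, while hsp-16.41 had one in replicate 2 alone (3.51, rank 7747). The stress factor gene xbp-1 had 10.3, rank 4442. A pair of genes was picked out after its values were seen: the near-identical HSP70 genes F44E5.4 and F44E5.5 share a divergent summit of 22.4, rank 694, in the peak II:11759297-11759652, just under the threshold. Its rank was 3894 in replicate 1 and 249 in replicate 2. How reads of such near-copies were placed is not given in the sources used here, so this value is uncertain.

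**Figure D4:**
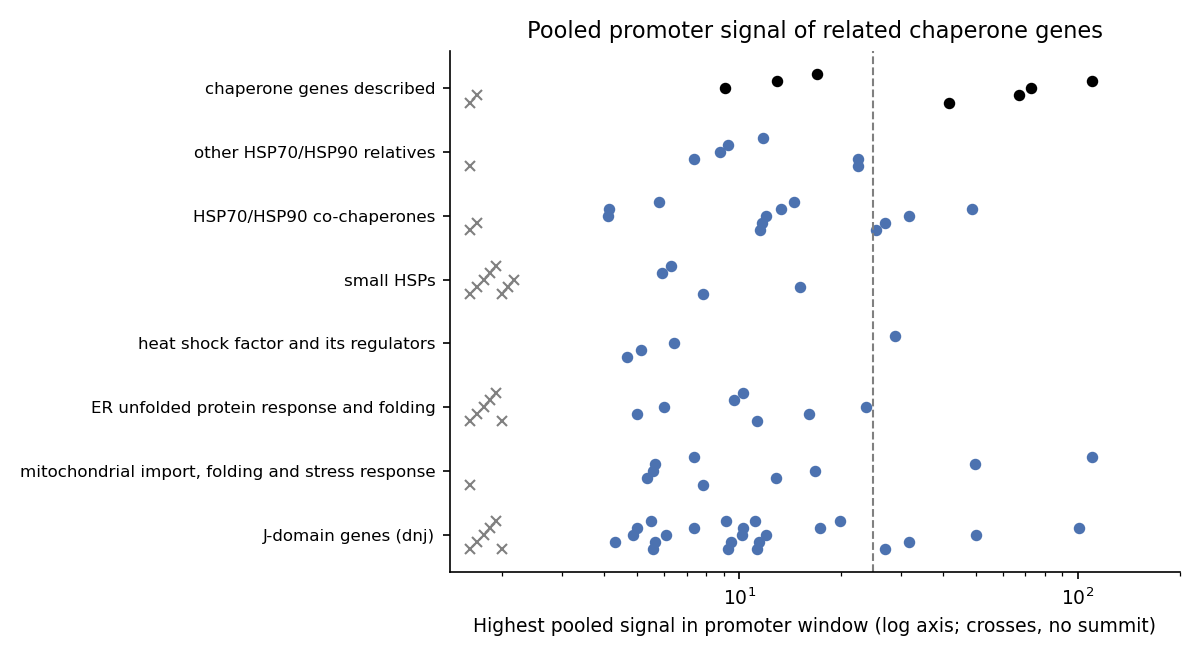
Best pooled promoter-window signal (horizontal axis, log scale, the authors' units) of the genes in each related list and of the 9 chaperone genes, 1 point a gene, with the dashed line at the threshold of 24.8 and genes without a pooled summit as crosses at the left, at no value. The co-chaperone, J-domain, mitochondrial and heat shock factor lists have points past the line, and the small heat shock, ER and other HSP70 lists have none.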

How the data were processed

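Young adult worms were measured by ChIP-seq in 2 biological replicates. The signal of each peak was taken as deposited by the authors in their narrowPeak lists on build ce11. Per the deposited text notes, replicate and pooled lists were called on alignments against a control, and both fed the thresholded list. The aligner, peak caller, versions, irreproducible discovery rate cutoff and signal scale were not given in the sources used here. Lists on ce10 were not used. The files give no depth, so no counting interval was computed.

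Summits were set against transcript starts of Ensembl release 115 (WBcel235), and a peak could count for several genes. The genes named are all 9 members, up to 4 bound genes of highest signal per related list, genes sharing a member peak and neighbouring genes; others were picked after their values were seen. The members and lists were chosen with earlier results of these data known. Of 84 listed symbols 3 matched no gene. With 1 group, no test was made. Alternatives varied the threshold, replicate, window, assignment and motif distance. The code for summit assignment was run on planted summits, with 1 start per gene. Of these, 500 of 500 planted 100 bp upstream, and 0 of 500 at 1500 bp, were assigned to the gene. This outcome is fixed by the window, so it checks the code only. Genes with several starts were not covered. Python 3.11.15, numpy 2.4.6 and matplotlib 3.10.9 were used.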

Additional observations from a re-analysis of the deposited data

How the results depend on the processing

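Of 139 alternatives 31 moved a count by more than 1.5 times, or a rank by more than its SD between the replicates: 3 of 29 for the summary counts, 9 of 35 for ranks of chaperone genes, 16 of 63 for single lists and 3 of 12 for single motifs. That SD comes from 2 ranks, which are also those of the single-replicate alternatives, and it is widest where the replicates differ most. The 9 of 35 is therefore no measure of how stable the ranks are. The number of bound chaperone genes, 4, was 1 with each summit given to the nearest start (1.92% of all genes). The number of bound related genes, 9, was 5 with the higher 50% of the thresholded peaks (1.5% of all genes) and 21 with the 3000 highest pooled peaks (9.56%). With the highest 550 peaks of replicate 2 alone, 3 chaperone genes and 8 related genes were bound, beside 2.28% of all genes. With those of replicate 1 alone the counts were 4 and 9, beside 2.71%. The chaperone gene absent without replicate 1 was hsp-110, where its best summit ranked 6010. Of the 9 related genes 5 remained bound without replicate 1, with bag-1, dnj-13, hsb-1 and sti-1 lost and F44E5.4, F44E5.5 and crt-1 gained, and 8 remained without replicate 2, with bag-1 lost and pdi-3 gained. The best rank of hsp-3 was 12802 without replicate 2. With a window of 500 bp upstream to 100 bp downstream the hsp-60 peak fell outside, and its best rank was 3326. With the first annotated start alone, an alternative chosen after seeing the data, 3 chaperone genes were bound, without hsp-90, beside 2.7% of all genes. Shifts with another threshold, window or start follow from their construction, and the cause of those between replicates was not tested. No paired analysis was possible because the samples form 1 group and no test was made. A scale of signal that is not stated, unknown depth and lists that stop at 30000 peaks limit what a missing summit can show.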
